A study of Danio rerio with 2 samples.

Results

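The genes of oxidative phosphorylation and of the mitochondrial genome were followed across 8 kinds of cells in trunk cells of zebrafish embryos. Members were taken by symbol, as every gene of the filtered table that starts with mt-, nduf, uqcr or atp5, or with cox and a digit, and 117 of 22077 genes fitted. Of these, 13 are protein genes of the mitochondrial genome and 104 are nuclear. The nuclear members hold 40 subunits of complex I with 7 assembly factors, 8 subunits of complex III, 21 subunits of complex IV with 9 assembly factors, and 17 subunits of complex V with 2 inhibitors. A total of 4 members carry symbols in capitals (COX7A2, NDUFB1, COX5B and COX5B.1). The embryos were Tg(crestin:mCherry;mitfa:GFP), collected at 72 hpf, and each library was a pool of the embryos of its condition. Both libraries had been treated with MoTP, a compound that ablates embryonic melanocytes, and were collected 8 h after its removal, so no group was free of ablation. The DMSO library received the vehicle and the CVT-10216 library the Aldh2 inhibitor, and GFP+, mCherry+ and double-positive trunk cells were collected by sorting. The design has 1 library per condition, so no test was made. All 95% intervals given here (exact Poisson for levels, exact Clopper-Pearson for shares) cover counting error only.

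Oxidative phosphorylation takes electrons from NADH and succinate through complexes I to IV of the inner mitochondrial membrane to oxygen, and complex V uses the proton gradient that results to make ATP. The mitochondrial genome encodes core subunits of complexes I, III, IV and V, whereas all other subunits and the assembly factors are nuclear. Several nuclear subunits of complex IV exist as paralogs that mammals use in a tissue-dependent manner, such as the heart and skeletal muscle forms COX6A2 and COX7A1 and the hypoxia-responsive COX4I2.

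Expression was measured as unique molecular identifiers (UMIs), each of which stands for 1 captured transcript end, in 4488 DMSO and 6795 CVT-10216 cells with median depths of 8581 and 9487 UMIs. A cell was placed in a gate when it held at least 3 UMIs of the gate gene at 300 or more counts per 1000000 of its UMIs (CPM) and did so for exactly 1 of the 8 gate genes. This placed 7615 cells. Another 1270 passed several limits and were left out, and 2398 passed none. In DMSO and CVT-10216, the gates held 60 and 36 cells for dct (melanophore lineage), 648 and 1438 for gch2 (xanthophore lineage), and 661 and 1712 for pnp4a (iridophore lineage). They held 1319 and 900 for phox2bb (enteric and autonomic), 103 and 156 for slc6a5 (glycinergic neurons), and 73 and 101 for mpeg1.1 (macrophages). The epcam gate (epithelium) held 101 and 162 cells and the actc1b gate (skeletal muscle) 22 and 123. The summed level of a gate's own marker list was highest in that gate in both libraries, except that the phox2bb list summed to 4450 and 7133 CPM in phox2bb cells and to 8985 and 8743 CPM in slc6a5 cells. In both libraries every marker was highest in its own gate for dct (8 of 8), slc6a5 (7 of 7), epcam (8 of 8) and actc1b (10 of 10), against 4 of 5 for gch2, 6 of 8 for pnp4a, 5 of 7 for phox2bb and 6 of 7 for mpeg1.1, where the remaining marker was at 0. Of 544 cells past the dct limit, 436 also passed that of gch2, so the dct gate is a small remainder, and values for all dct cells are given beside it. Muscle markers in the actc1b gate summed to 8209 and 11267 CPM, against 28367 and 27537 CPM in the 6 and 38 cells with at least 5000 CPM of actc1b, so these are also given. They were taken by actc1b alone, without leaving out cells that passed other limits. Genes of other gates were present in them, such as gch2 (468 and 873 CPM) and fhl2a of the iridophore-lineage list (1685 and 220.3 CPM). No doublets were removed, and 4 barcodes occur in both libraries. How the counting divided reads between near-identical paralogs was not tested.

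The members took 4.19% of all UMIs in the DMSO library and 4.22% in the CVT-10216 library. Within this, the share of mitochondrial genome transcripts differed between gates by a factor of 2.64 in DMSO and 2.16 in CVT-10216, from the phox2bb cells at the low end. There it was 1.13% (1.13 to 1.14) with DMSO and 1.07% (1.07 to 1.07) with CVT-10216. The gch2 cells were close to them at 1.16% (1.15 to 1.17) and 1.17% (1.16 to 1.18). Pigment cells of the pnp4a gate were higher, at 1.58% (1.58 to 1.59) and 1.61% (1.61 to 1.61). The mpeg1.1 cells held 2.37% (2.33 to 2.40) and 2.31% (2.29 to 2.34), and the slc6a5 neurons 2.19% (2.15 to 2.23) and 2.01% (1.98 to 2.04). At these gate limits, the mpeg1.1 and slc6a5 gates stood above all 3 pigment gates in both libraries, with intervals that did not overlap. The intervals understate how far shares depend on the settings. With other gate limits, depths and cell weights, 248 of 300 mitochondrial and nuclear shares left their interval. The mitochondrial share then ran from 1.84 to 2.46% and 1.87 to 2.34% in slc6a5 cells. In dct cells it ran from 1.31 to 2.31% and 1.2 to 2.25%. This did not extend to the neuronal cells of the phox2bb gate, as those past the gate limits for elavl3 and elavl4 summed held 1.24% and 1.13%. The dct cells held 1.77% and 1.72%, although all cells past the dct limit gave 1.31% in both libraries. The actc1b cells held 1.83% in both libraries, and 2.16% and 1.78% at 5000 CPM of actc1b or more. The epcam cells were highest with DMSO, at 2.99% (2.96 to 3.02), and held 1.88% (1.87 to 1.90) with CVT-10216.

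The nuclear share did not follow the mitochondrial share. It was lowest in the dct cells (2.26% and 1.97%) and gch2 cells (2.2% and 2.21%), and it was higher in pnp4a cells (3.22% and 3.17%), actc1b cells (3.05% and 3.33%) and epcam cells (3.97% and 3.37%). The cells with at least 5000 CPM of actc1b held 4.64% and 4.11%, above the epcam gate in both libraries. The phox2bb cells had the lowest mitochondrial share but a middle nuclear share of 2.88% and 2.67%. The slc6a5 cells held 2.94% and 2.55%, and the mpeg1.1 cells 2.71% and 2.93%. With all dct cells the nuclear share was 2.80% and 2.85%, so the low value held for the dct gate and not for all cells past the dct limit.

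**Figure D1:**
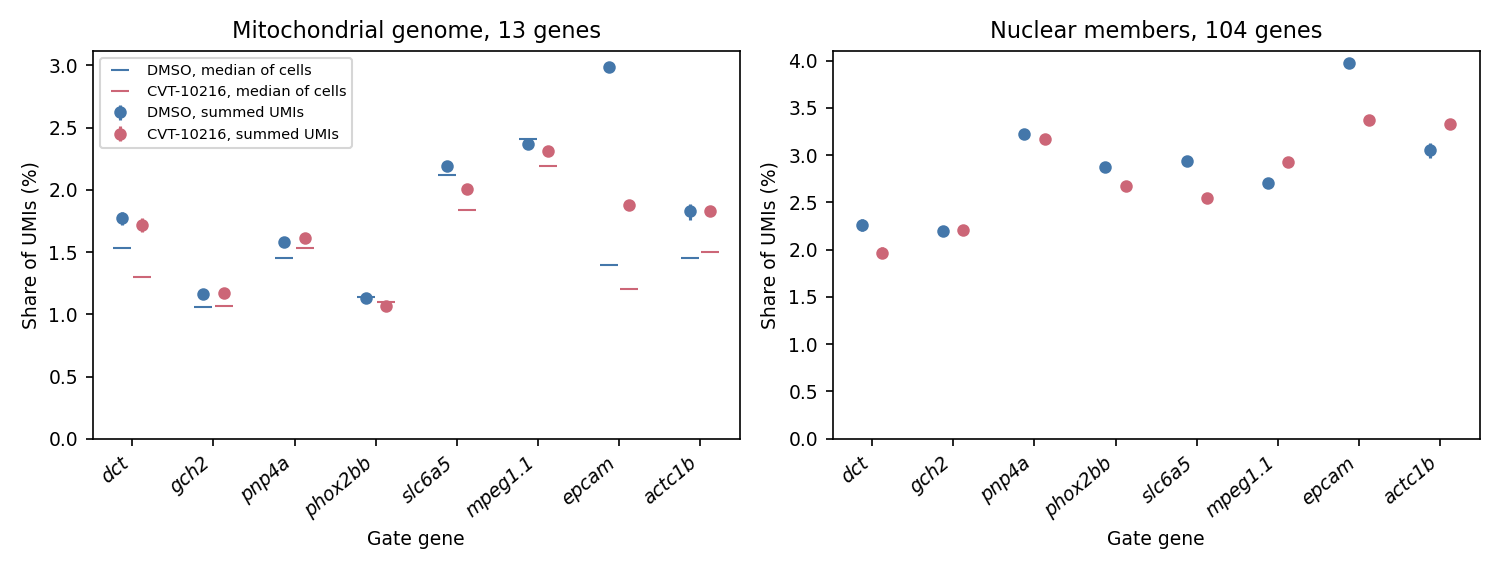
Share of UMIs (y axis, %) from the 13 mitochondrial genome genes (left) and the 104 nuclear members (right) in the 8 gates (x axis). Points are summed UMIs of a library with 95% counting intervals, mostly smaller than the point, and dashes on the left are medians over cells. The epcam points lie at 2.99% (DMSO) and 1.88% (CVT-10216), far above the medians of their cells (1.40% and 1.20%).

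The make-up of the mitochondrial transcripts was similar in all gates, and no mitochondrial gene was 2-fold above or below the other gates in both libraries in any gate. Values are shares of the mitochondrial UMIs, which count transcript ends and are not per length. The complex IV core subunits mt-co1, mt-co2 and mt-co3 took 9.68 to 14.7%, 22.4 to 27.3% and 17.3 to 22.3%. The ATP synthase subunit mt-atp6 ranged from 10.4% (dct, DMSO) to 16.7% (phox2bb, DMSO). The complex I subunits mt-nd1, mt-nd2 and mt-nd4 took 3.16 to 4.82%, 2.40 to 3.99% and 3.24 to 4.58%. Shares of mt-nd3 (1.34 to 1.70%) and mt-nd5 (0.74 to 1.56%) were small, and those of mt-nd4l, mt-atp8 and mt-nd6 were at most 0.331% in every gate. mt-nd6 is the member encoded on the opposite strand of the mitochondrial genome.

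A shift between pigment and neural gates was seen in mt-cyb, the complex III subunit cytochrome b. It took 17.2% and 19% of mitochondrial UMIs in gch2 cells and 17.8% and 17.4% in pnp4a cells, against 12.6% and 14.2% in slc6a5 cells and 13.9% and 14.4% in phox2bb cells. All 3 pigment gates were above both neural gates in both libraries. The mpeg1.1 cells (16.5% and 18.1%) lay with the pigment gates and the actc1b cells (13.7% and 13.9%) with the neural gates, so the division was not by pigment alone.

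**Figure D2:**
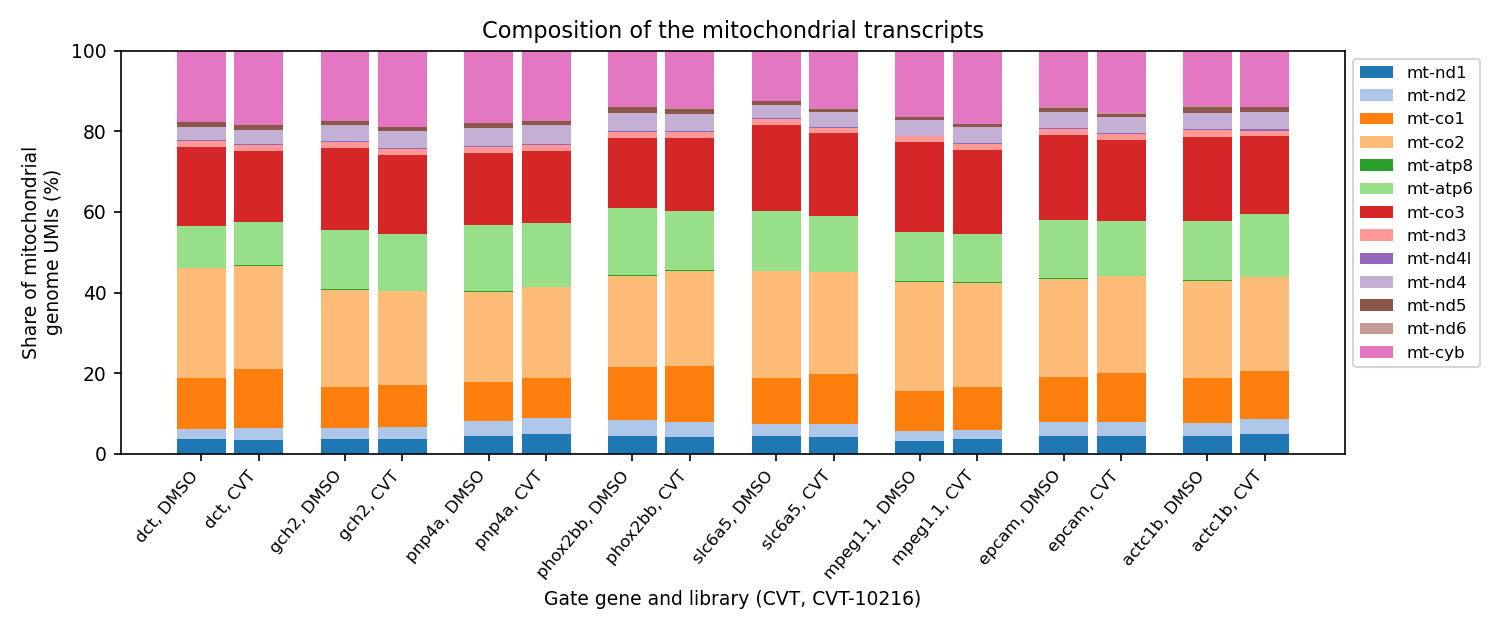
Share of mitochondrial UMIs (%) taken by each of the 13 mitochondrial genome genes, as stacked bars for each gate and library. The stacks are alike in all gates, and among the differences mt-cyb ranges from 12.6% in slc6a5 cells with DMSO to 19% in gch2 cells with CVT-10216.

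Nuclear subunits of all 4 complexes took the largest share of UMIs in epcam cells with DMSO. With CVT-10216 the actc1b cells were above them for complexes I, III (0.258% against 0.244%) and V (1.31% against 1.29%), but not IV (0.843% against 0.949%). The epcam values include the cells with sodium pump genes described below. The 6 and 38 cells with at least 5000 CPM of actc1b were above the epcam gate for every complex in both libraries. They held 0.999% and 0.965% for complex I, 0.363% and 0.33% for III, 1.13% and 1.02% for IV, and 1.98% and 1.63% for V. For complex IV with DMSO the intervals overlapped (1.03 to 1.24 against 1.08 to 1.11). Complex I subunits took 0.89% and 0.758% of UMIs in epcam cells, 0.731% and 0.792% in actc1b cells, but 0.574% and 0.566% in gch2 cells. Complex III subunits took 0.285% and 0.244% in epcam cells and 0.165% and 0.167% in gch2 cells. Complex IV subunits ran from 0.547% and 0.556% in gch2 cells to 0.907% and 0.893% in pnp4a cells and 1.09% and 0.949% in epcam cells. For complex V the same gates gave 0.844% and 0.846%, 1.25% and 1.24%, and 1.56% and 1.29%. Thus the xanthophore-lineage cells were below the iridophore-lineage cells for every complex in both libraries. The neural gates did not keep 1 order. The slc6a5 cells were above phox2bb cells for complex I (0.763% and 0.670% against 0.695% and 0.647%). They were below them for complex V (1.05% and 0.905% against 1.15% and 1.06%). Complex I here includes ndufa4 by its name, a gene far higher in slc6a5 cells (below). The order for complex I rests on this gene with CVT-10216, though not with DMSO. Assembly factors were a small part everywhere, at 0.00848 to 0.0166% for complex I and 0.0239 to 0.0426% for complex IV.

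To compare single genes, the level in each gate was set against the mean of the other 7 gates within each library, for 13683 genes with at least 50 summed UMIs in each library. Of the 117 members, 114 had that many, and ndufs1, COX5B and ndufa9b did not. In gch2 cells 107 of the 114 members were below the other gates in both libraries, with a median log2 ratio of −0.48 and −0.38. All genes tested had medians of −0.61 and −0.50 there. The nuclear members were lower by less than genes in general, with medians of −0.46 and −0.32. The 13 mitochondrial members were lower by more, with medians of −0.83 and −0.68. The members' median was 0.08 and 0.15 in pnp4a cells (all genes −0.64 and −0.62) and 0.48 and 0.25 in epcam cells (all genes −0.57 and −0.57), where 95 members were higher in both libraries. In dct cells it was −0.34 and −0.44 against −0.06 and 0.09 for all genes. These medians describe the dct gate and were not made for all cells past the dct limit. The nuclear share of all those cells was higher (2.80% and 2.85% against 2.26% and 1.97% in the gate).

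Differences of at least 2-fold in both libraries were few and fell mostly on minor paralogs, with some on assembly factors. In epcam cells 7 members were called higher (cox6a2, cox5b2, cox7a1, cox4i1l, cox6b1, cox8b and atp5if1b), a share of 6.14% where 7.56% of all genes were called higher, and 0 were called lower where 24.0% of all genes were. In pnp4a cells cox4i2 was called higher (background 4.26%) and 7 members lower (33.8%). In slc6a5 cells ndufa4 was called higher (21.4%) and 6 members lower (20.2%). In mpeg1.1 cells COX7A2 and cox8b were called higher (6.95%) and 3 members lower (35.7%). The remaining gates had few or no higher calls. In gch2 cells 0 members were called higher (4.11%) and 10 lower (27.3%), and in phox2bb cells 0 higher (6.94%) and 8 lower (22.5%). In actc1b cells 0 were called higher (3.85%) and 2 lower (13.6%). In dct cells ndufaf7 and cox18, assembly factors of complexes I and IV, were called higher (8.58%) and 5 members lower (14.2%), but the higher calls rested on 2 and 4 UMIs of ndufaf7 and 8 and 6 of cox18, and neither was called among all dct cells. In each direction and gate the share of members called was below the background. The lower calls were mostly the same rare paralogs (cox6a2, cox5b2, cox7a1, cox4i1l, cox8b), whose mean over the other gates includes the epcam cells where they were high.

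Among complex I members by name, ndufa4 had the most uneven pattern. In mammals its product is now counted as a subunit of complex IV. It stood at 445 CPM (389 to 507) and 418 CPM (376 to 463) in slc6a5 cells, 13.8-fold and 5.88-fold above the mean of the other gates. The other gates held 7.64 to 72.1 CPM with DMSO and 13.3 to 125 CPM with CVT-10216, so slc6a5 stood alone among the 8 gates in both libraries. This does not cover cell kinds within a gate. In the 16 and 16 epcam cells with sodium pump genes (below), ndufa4 was 2.42-fold and 7.95-fold above the other epcam cells. They held 4.23% of all 5015 ndufa4 UMIs. The upper end of the range with CVT-10216 was in dct cells, on 27 UMIs, where the 7 markers of the slc6a5 gate summed to 823 CPM against 46.5 CPM with DMSO. The lowest level was in phox2bb cells with DMSO and in pnp4a cells with CVT-10216. Its paralog ndufa4l varied little, from 514 to 1062 CPM with DMSO and from 430.1 to 832 CPM with CVT-10216. As a share of the UMIs of ndufa4, ndufa4l and ndufa4l2a together, ndufa4 made up 46.4% and 46.5% in slc6a5 cells, against 1.07 to 22.5% in all other gates. Only 38 of 103 and 75 of 156 slc6a5 cells were deep enough to be thinned to 4000 UMIs. Of these, 44.7% (28.6 to 61.7) and 53.3% (41.4 to 64.9) held a UMI of ndufa4. Among all slc6a5 cells, unthinned, the shares were 55.3% and 62.2% (median depths 3397 and 3892). In pnp4a cells the thinned shares were 2.71% and 4.32% (8.47% and 14.1% unthinned, median depths 13358 and 15060). The third paralog, ndufa4l2a, reached 20 and 53 UMIs in pnp4a cells and 30 and 49 in phox2bb cells, and at most 6 in each of the other gates. The ndufab1 pair, acyl carrier proteins of complex I, showed no such switch, with ndufab1a at 35.9 to 62.1% of the pair.

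Complex IV carried most of the isoform differences. cox4i2, a paralog of the regulatory subunit cox4i1, was raised in the pnp4a and gch2 gates, and was called higher in pnp4a cells only. It reached 84.9 CPM (78.9 to 91.2) and 55.7 CPM (52.9 to 58.6) in pnp4a cells, 3.9-fold and 4.73-fold above the mean of the other gates. The gch2 cells followed at 46.2 and 33.1 CPM and all dct cells at 27.7 and 25.3 CPM, whereas phox2bb cells held 1.27 and 2.78 CPM and slc6a5 cells 3.91 and 2.32 CPM. In the dct gate itself, 11.7% of 60 and 5.56% of 36 cells held a cox4i2 UMI (unthinned, median depths 2956 and 4022). The actc1b cells held 36.3 and 7.16 CPM, on 6 and 8 UMIs. The pnp4a cells were above the gch2 cells, and these above the neural cells, with separate intervals in both libraries. Of all 3636 cox4i2 UMIs, 60.6% lay in pnp4a cells. cox4i1 nevertheless remained the main form everywhere, as cox4i2 took 8.05% and 5.34% of the COX4 UMIs in pnp4a cells, 7.68% and 5.50% in gch2 cells, and 0.153% and 0.358% in phox2bb cells. On cells thinned to 4000 UMIs, 25.7% and 21.4% of pnp4a cells held a cox4i2 UMI (49.0% and 45.6% unthinned). The phox2bb cells, which were deeper with medians of 16306 and 19244 UMIs, gave 0.958% and 1.59% (2.50% and 5.67% unthinned).

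COX7A2, whose mammalian namesake is the widely expressed form of that subunit, was highest in the macrophage gate. Its level in mpeg1.1 cells was 149.6 CPM (124 to 179) and 141 CPM (122 to 163), 4.36-fold and 3.68-fold above the mean of the other gates. The phox2bb cells (68.3 and 67.0 CPM) and epcam cells (65.6 and 72.4 CPM) came next, while pnp4a cells (14.6 and 15.9 CPM) and slc6a5 cells (9.77 and 10.5 CPM) were lowest. Here both neural gates differed from each other. COX7A2 took 30.2% and 25.6% of the COX7A UMIs in mpeg1.1 cells, 9.41% and 9.89% in phox2bb cells and 1.31% and 1.73% in slc6a5 cells, with cox7a2a as the main form in all gates. cox8b was also raised in mpeg1.1 cells, at 72.2 and 58.6 CPM or 8.46% and 6.29% of the COX8 UMIs, and in epcam cells, at 110.2 and 64.7 CPM or 10.6% and 6.48%. Elsewhere it took at most 2.73%.

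The cox6a2 and cox7a1 genes, named after the mammalian heart and skeletal muscle forms, were highest not in the actc1b gate but in the epcam gate. cox6a2 stood at 134 CPM (117 to 154) and 88.5 CPM (77.9 to 100.1) in epcam cells, while actc1b cells held 0 and 9 UMIs of it (0 and 8.05 CPM). Of 769 cox6a2 UMIs in all cells, 59.6% lay in epcam cells, and they came from 144 cells in all, with up to 46 in a single cell. In the cells with at least 5000 CPM of actc1b, cox6a2 counted 0 UMIs with DMSO, where the upper bound of the exact Poisson interval was 86.3 CPM and 3 counts would be 70.2 CPM, and 1.64 CPM (0.0416 to 9.16) with CVT-10216. In those cells cox6a1 was at 1194 and 991 CPM and the muscle creatine kinase ckma at 2949 and 3250 CPM. cox7a1 reached 83.3 and 85.7 CPM in epcam cells, 12.1 and 15.2 CPM in actc1b cells, and 23.4 and 24.7 CPM at 5000 CPM of actc1b or more, on 1 and 15 UMIs. It took 11.1% and 12% of the COX7A UMIs in epcam cells against 2.53% and 2.19% in actc1b cells.

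cox6b1, a subunit at the dimer interface of complex IV, was the minor member of its pair beside cox6b2 in every gate. Its share was 25.5% and 30.1% in epcam cells (388 and 416 CPM) and 24.7% and 25.3% in slc6a5 cells (225 and 196 CPM), but 1.93% and 4.87% in phox2bb cells (13.9 and 33.2 CPM). As for COX7A2, the 2 neural gates were far apart, with intervals of 185 to 269.7 CPM and 12.7 to 15.3 CPM with DMSO. The cox5a pair showed smaller differences, with cox5aa at 49.3 to 72.9% of the pair.

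**Figure D3:**
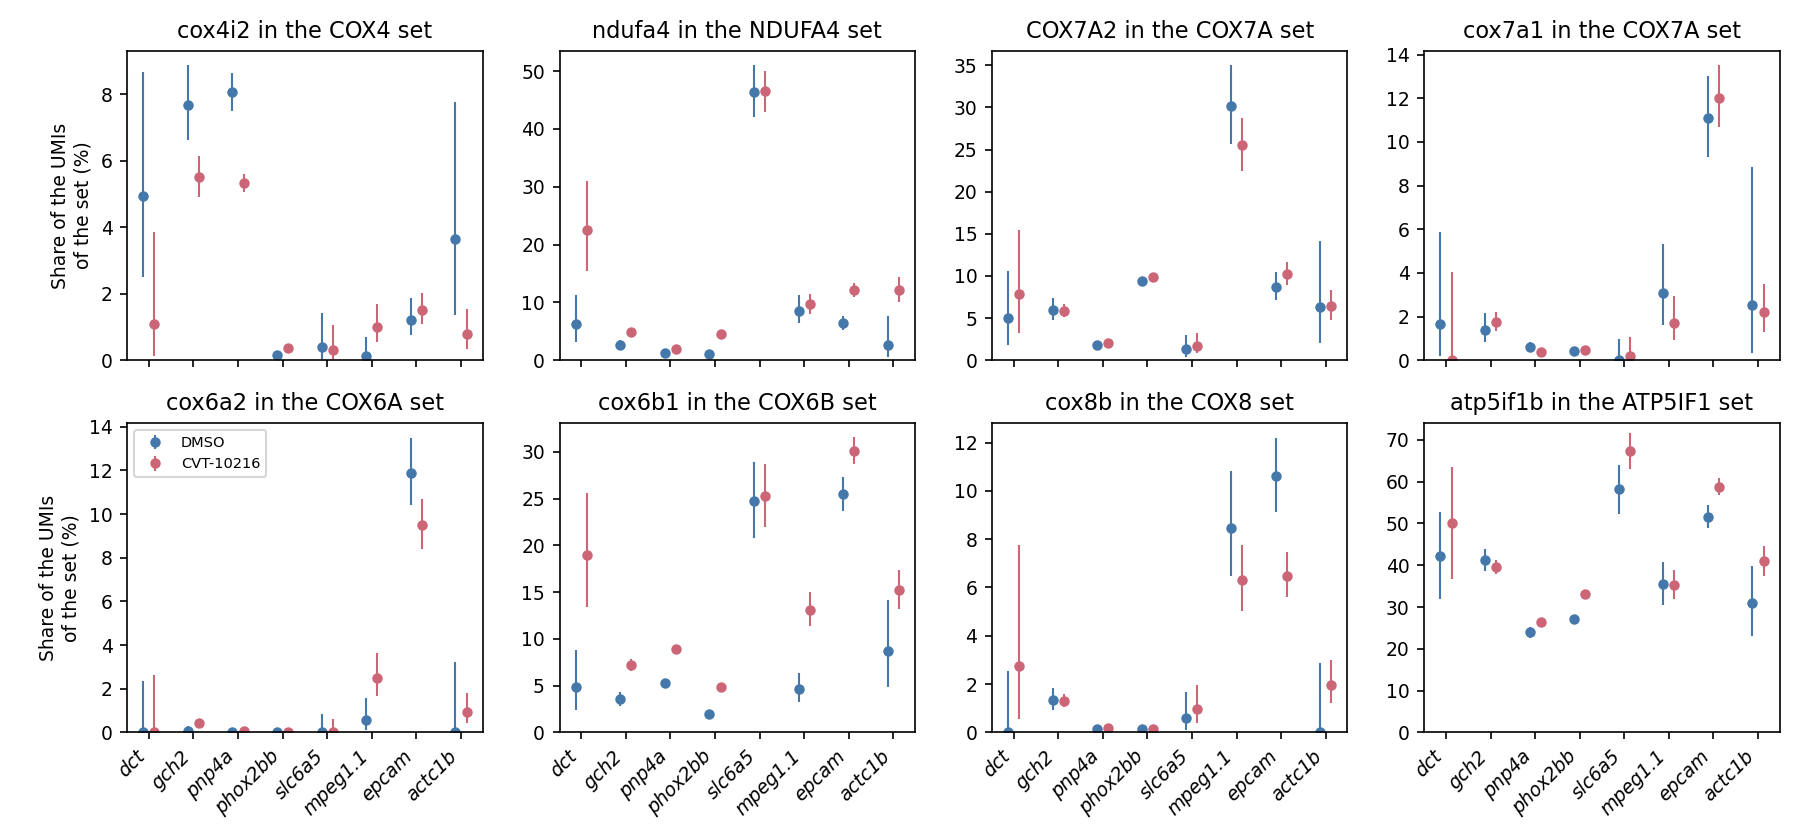
Share (%) of the UMIs of a paralog set taken by the named paralog in each gate, with DMSO and CVT-10216 points and 95% counting intervals. The gate with the highest share was not the same for all sets, with slc6a5 for ndufa4 (46.4% and 46.5%) and mpeg1.1 for COX7A2 (30.2% and 25.6%). The share of cox4i2 was 8.05% and 5.34% in pnp4a cells, where gch2 cells were close with DMSO and above with CVT-10216.

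In complexes III and V the paralog shares of uqcrc2a and of the inhibitor atp5if1b differed between gates. uqcrc2a, a core protein of complex III, took 69.0% and 59.2% of its pair with uqcrc2b in actc1b cells, against 33.3 to 55.1% in the other gates. Its level there was 176 CPM (118 to 252) and 152 CPM (130.1 to 177), and 257 and 214 CPM at 5000 CPM of actc1b or more, where it was called higher (4.27% of all genes were) together with cox17, a copper chaperone of complex IV. In complex V, atp5mc3b was the main gene of the proton-carrying c ring, with 51.1 to 66.8% of the UMIs of its 3 genes. The gene atp5meb held 74.0 to 93.8% of its pair. The inhibitors of the ATP synthase differed more. atp5if1b was the main form in slc6a5 cells, with 58.2% and 67.4% of the pair (332 and 374 CPM), and in epcam cells, with 51.6% and 58.8% (441 and 479.7 CPM). In pnp4a cells it was the minor form at 23.9% and 26.4% (131 and 138 CPM), since atp5if1a stood at 415 and 385 CPM. In the epcam gate atp5if1b was 2.40-fold above the other gates in both libraries.

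The epcam gate held cells of more than 1 kind. Of these, 16 cells with DMSO and 16 with CVT-10216 held a UMI of atp1a1a.3 or atp1a1a.5, sodium pump subunits, a split made after the values had been seen. These cells carried slc12a10.3 at 356 and 1724 CPM, where the other epcam cells held 0, and bsnd, a chloride channel subunit, at 259 and 471 CPM against 13.7 and 8.68 CPM. They held less of the epidermal keratin krt4 (1173 and 2106 CPM against 18288 and 17429 CPM). Other transporters did not mark them in the same way, as slc12a3 was at 41.7 and 120.1 CPM against 44.6 and 21.7 CPM, and slc5a9 at 103 and 0 CPM against 126 and 77.3 CPM. Mitochondrial genome transcripts made up 5.77% (5.69 to 5.85) and 5.92% (5.84 to 6.0) of their UMIs, against 2.13% and 1.37% in the other epcam cells. Nuclear members made up 6.29% and 9.54%, against 3.25% and 2.57%. For nuclear subunits of complexes I, III, IV and V, the epcam cells without atp1a1a held 0.743%, 0.238%, 0.904% and 1.25% with DMSO. With CVT-10216 they held 0.594%, 0.184%, 0.728% and 0.972%, below the pnp4a cells for each complex (0.691%, 0.236%, 0.893% and 1.24%). In both libraries 34 of 101 nuclear and 9 of 13 mitochondrial members were at least 2-fold higher in the cells with atp1a1a, and 0 members were 2-fold lower, where 11.1% of all genes were higher and 9.15% lower. Median log2 ratios were 0.89 and 1.82 for nuclear and 1.32 and 2.12 for mitochondrial members, where all genes had medians of 0.11 and 0.05.

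Both rare paralogs followed the same cells. cox7a1 was at 222 and 591 CPM with atp1a1a and at 40.3 and 20.9 CPM without. cox6a2 was at 284 and 483 CPM with and at 88.4 and 37.9 CPM without, so that 33.7% of all its UMIs lay in these cells. Not every member did so, as cox8b was lower in them (77.8 and 33.9 CPM against 120.1 and 68.6 CPM). Cells rich in nuclear members were not limited to those with atp1a1a. Nuclear members exceeded 5% of UMIs in 12 of 16 and 14 of 16 cells with atp1a1a and in 13 of 85 and 17 of 146 cells without. Without the atp1a1a cells, 6 members were still called higher in the epcam gate (6.79% of all genes), and atp5if1b was not among them.

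**Figure D4:**
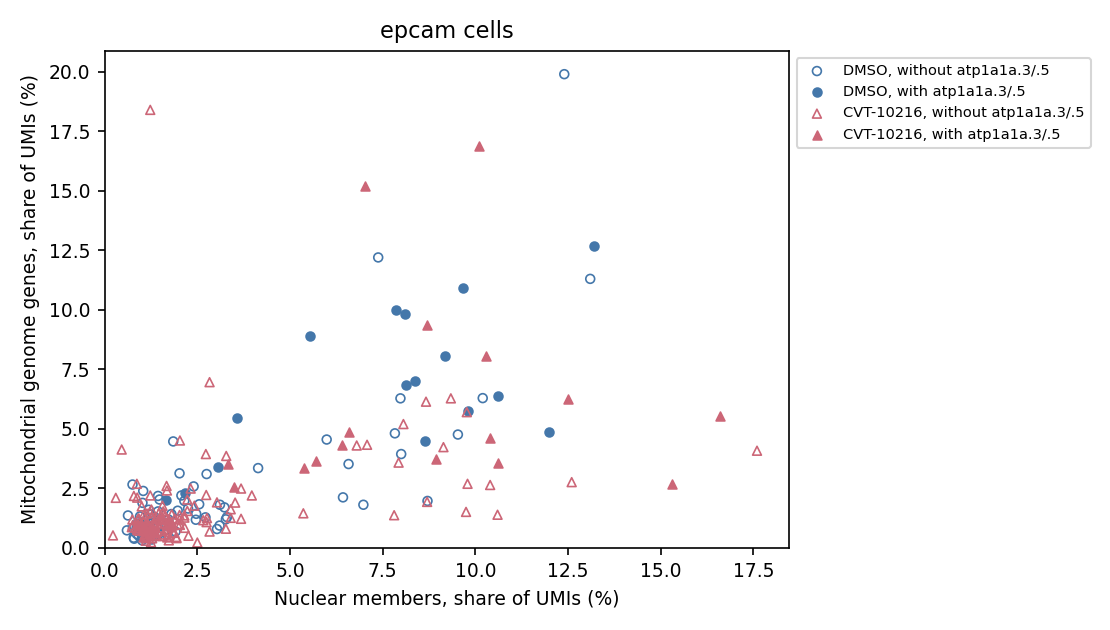
Each point is an epcam cell, with the share of its UMIs from nuclear members (x axis, %) and from mitochondrial genome genes (y axis, %), by library and by whether it held a UMI of atp1a1a.3 or atp1a1a.5. Most cells without atp1a1a gather near the origin (median nuclear shares of 1.43% and 1.56%), and cells with it spread to higher shares of both (median nuclear shares of 8.25% and 8.81%).

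The libraries with and without the Aldh2 inhibitor differed little in these genes in most gates. Levels with CVT-10216 were set against DMSO for genes with at least 50 summed UMIs in a gate, and a change of 1.5-fold was called. In gch2 cells 3 of 108 members (ndufa4, cox6b1 and the complex I subunit ndufb11) were called higher (background 7.50%) and 0 lower (2.30%), and the median log2 ratio was 0.01 for nuclear and 0.03 for mitochondrial members, against 0.06 for all genes. In pnp4a cells 2 of 111 (ndufa4 and cox6b1) were called higher (5.25%) and 2 (cox4i2 and cox7a1) lower (4.82%), with medians of −0.03, 0.02 and 0.03. These xanthophore- and iridophore-lineage cells thus differed little in the members as a whole. In mpeg1.1 cells 1 of 93 (cox6b1) was called higher (5.99%) and 0 lower (4.89%). In slc6a5 cells 0 of 89 were called higher (6.87%) and 1 (the complex I assembly factor ndufaf2) lower (5.51%), with medians of −0.21 for nuclear members and −0.01 for all genes. In phox2bb cells 4 of 112 (ndufa4, ndufa4l2a, cox6b1 and cox4i2) were called higher (19.2%) and 0 lower (1.18%), with medians of −0.10, −0.13 and 0.13. Members thus lay below the median of all genes in phox2bb and slc6a5 cells.

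In 3 gates the count depended on which cells the gate held. In dct cells 0 of 74 members were called higher (9.61%) and 11 lower (10.7%), among them the complex I subunits ndufb2 (log2 ratio −1.11) and ndufa5 (−0.98). Among all dct cells 1 of 107 (ndufa4) was called higher (4.65%) and 0 lower (3.93%), with medians of 0.02 for nuclear members and −0.00 for all genes. In actc1b cells 5 of 92 were called higher (15.7%) and 0 lower (11.1%), namely ndufb6 (0.87) and ndufa9a (0.97) of complex I, cox7a2l (0.70), ndufa4 and cox6b1, each on at most 20 UMIs with DMSO. At 5000 CPM of actc1b or more, 4 of 87 (ndufa4, ndufa9a, ndufa11 and ndufs8a) were higher (27.1%) on at most 4 UMIs with DMSO, and 11 were lower (18.2%). In epcam cells 1 of 111 (ndufa4) was called higher (9.94%) and 15 lower (10.8%). The lower calls included 9 mitochondrial genes, with log2 ratios of −0.62 (mt-nd4) to −1.0 (mt-nd5), as well as cox4i1l (−2.09) and the assembly factor cox16 (−1.16). Cells with and without atp1a1a moved apart. With atp1a1a, 42 of 91 members were called higher (23.8%) and 0 lower (16.0%), and without it 0 of 107 were called higher (10.2%) and 21 lower (9.25%). The cells with atp1a1a also differed in kind between the libraries. In DMSO and CVT-10216, slc12a10.3 stood at 356 and 1724 CPM and the sodium pump subunit atp1b1b at 195 and 1121 CPM, while slc6a19a.1 stood at 136 and 0 CPM and slc34a1a at 47.3 and 0 CPM (3 counts in the CVT-10216 cells would be 9.24 CPM). Cells with more than 5% mitochondrial UMIs, 16 with DMSO and 12 with CVT-10216, held 55.9% and 32.5% of the mitochondrial UMIs of the gate. The median cell held 1.40% and 1.20%, and without the cells above 5% the log2 ratio of the mitochondrial share was −0.27 in place of −0.67. It turned to 0.62 when 1 UMI of epcam was enough for the gate. With 1 library per condition, a change in the kinds of cells captured and a change within cells cannot be told apart.

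Only 2 members, ndufa4 and cox6b1, were called higher with CVT-10216 in 3 or more gates, and each was so in 5. How many of all genes were called in 3 or more gates was not counted, so how unusual this is cannot be said. In gch2 cells ndufa4 stood at 16.3 CPM (DMSO) and 27.9 CPM (CVT-10216) (log2 ratio 0.77, interval 0.37 to 1.21). It stood at 8.00 and 13.3 CPM in pnp4a cells (0.72, 0.36 to 1.12) and at 7.64 and 30.4 CPM in phox2bb cells (1.99, 1.78 to 2.21). In slc6a5 cells, the highest of the 8 gates for ndufa4, it was not called (445 and 418 CPM, −0.09, −0.34 to 0.15), and nor was it in mpeg1.1 cells (0.49, −0.00 to 1.02). It was also called in actc1b cells on 3 and 112 UMIs (2.25, 0.88 to 4.76), and in epcam cells (0.66), where it was 1.95 with and 0.23 without atp1a1a. cox6b1 was higher in gch2 cells (26.4 and 54.4 CPM, 1.03, 0.73 to 1.37), pnp4a cells (55.6 and 90.7 CPM, 0.70, 0.56 to 0.85), phox2bb cells (13.9 and 33.2 CPM, 1.25, 1.08 to 1.42) and mpeg1.1 cells (44.4 and 135 CPM, 1.59, 1.08 to 2.17). It was also called in actc1b cells (0.81, 0.07 to 1.75), though not at 5000 CPM of actc1b or more (−0.25, −1.21 to 1.08). It was not called in slc6a5 cells (225 and 196 CPM, −0.20, −0.55 to 0.16) or epcam cells (388 and 416 CPM, 0.10, −0.04 to 0.25). The main paralogs of both were called in no gate. Over the 8 gates the log2 ratio of ndufa4l was −0.42 to 0.30 and that of cox6b2 −0.24 to −0.04.

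Both genes were high in the slc6a5 gate, and cox6b1 also in the epcam gate. The phox2bb gate holds neurons too, but both genes were low there. On cells thinned to 4000 UMIs, 3.35% and 9.1% of phox2bb cells held a UMI of ndufa4. This compares with 44.7% and 53.3% of the 38 and 75 slc6a5 cells that were deep enough. For cox6b1 these shares were 5.75% and 10.1% against 36.8% and 33.3%. Within the phox2bb gate, neuronal markers were higher with CVT-10216, as were both genes. The 7 markers of the slc6a5 gate summed to 1352 CPM (DMSO) and 2582 CPM (CVT-10216) in phox2bb cells, none of them at 0, and elavl3, a neuronal RNA-binding protein gene, stood at 598 and 942 CPM. Cells past the limit for elavl3 and elavl4 made up 650 of 1319 phox2bb cells with DMSO and 582 of 900 with CVT-10216. Among them the ratio of ndufa4 was 1.76 (1.53 to 1.99) and that of cox6b1 1.21 (1.01 to 1.42). Among the others they were 0.45 (−0.35 to 1.20) and 0.61 (0.24 to 0.98). In the pigment gates the same markers summed to 126 and 197 CPM in gch2 cells and to 25.4 and 56.6 CPM in pnp4a cells, also higher with CVT-10216, while in mpeg1.1 cells they summed to 21.5 and 25.6 CPM. Muscle markers were higher with CVT-10216 in all of these gates. The 10 markers summed to 109 and 356 CPM in gch2 cells, 40.9 and 142 CPM in pnp4a cells, 32.2 and 102 CPM in phox2bb cells, 44.4 and 147 CPM in mpeg1.1 cells (1 marker at 0) and 46.6 and 155 CPM in epcam cells. They were also higher in slc6a5 cells (72.3 and 396 CPM), where neither gene was called. Erythrocyte markers summed to 67.0 and 689 CPM in gch2 cells, and to 48 and 4561 CPM in all cells past the dct limit. The part of these markers' cells in the differences was not tested.

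**Figure D5:**
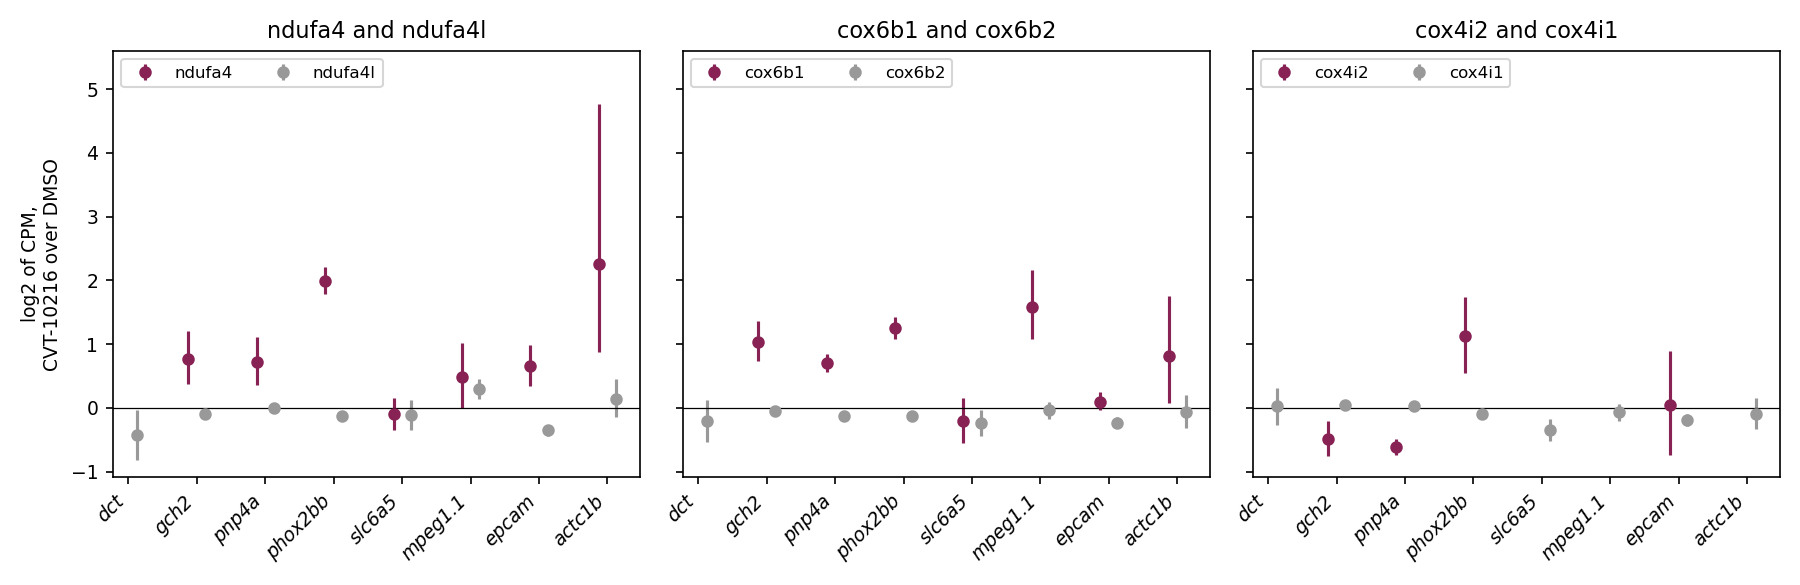
Log2 ratio of CPM with CVT-10216 over DMSO (y axis) in each gate for ndufa4, cox6b1 and cox4i2 (dark) and for the main paralog of each (grey), with 95% counting intervals. Genes under 50 UMIs in a gate are not drawn. ndufa4 and cox6b1 lie above 0 in 6 of 7 gates and below 0 in slc6a5 cells, while cox4i2 lies below 0 in pnp4a cells (−0.61) and above 0 in phox2bb cells (1.13).

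The paralog cox4i2, called higher in pnp4a cells than in the other gates, went the other way. It was lower with CVT-10216 in pnp4a cells (84.9 and 55.7 CPM, −0.61, −0.74 to −0.48) and was lower without reaching the threshold in gch2 cells (46.2 and 33.1 CPM, −0.48, −0.76 to −0.20). cox4i1 hardly differed in those gates (0.03 and 0.04). The sum of the 8 iridophore-lineage markers was also lower in pnp4a cells (4292 and 3475 CPM), but not every marker was. Among them fhl2a stood at 149.6 and 31.5 CPM, fhl2b at 125 and 37.1 CPM and gpnmb at 1824 and 1348 CPM. The markers tfec, atic and alx4b were also lower, the last only slightly (391 and 371 CPM). In contrast, alx4a (789.7 and 876 CPM) and ltk (43 and 46.5 CPM) were higher. Their part in the result was not tested. In all dct cells the ratio of cox4i2 was −0.13 (−0.64 to 0.38). In phox2bb cells, where it is rare, it was higher, on 40 and 67 UMIs (1.13, 0.55 to 1.74).

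Of 40 other genes of the pathway listed, 39 were in the files and 31 had enough UMIs. They cover complex II, electron carriers, the upkeep of mitochondrial DNA, carriers and mitochondrial creatine kinases. Between gates, 6 of the 31 were called lower in gch2 cells (27.3% of all genes), with sdhda of complex II and the biogenesis regulators esrra and ppargc1b among them, and 1 was called higher (4.11%). There sdhda stood at only 0.267 and 0.332 CPM, where 3 counts would be 0.801 and 0.332 CPM. Its paralog sdhdb (75.6 and 79.5 CPM) and sdha, sdhb and sdhc were not called. In mpeg1.1 cells 6 were lower (35.7%) and 1 higher (6.95%), and in pnp4a cells 3 were lower (33.8%) and 0 higher (4.26%). In phox2bb cells 2 were lower (22.5%) and 1 higher (6.94%), and in slc6a5 cells 2 were lower (20.2%) and 3 higher (21.4%). In actc1b cells 2 were lower (13.6%) and 0 higher (3.85%), in dct cells 0 lower (14.2%) and 2 higher (8.58%), and in epcam cells 0 lower (24.0%) and 1 higher (7.56%). In each gate and direction the share of these genes called was below that of all genes, again without matching for level. The creatine kinase ckmt1 was the gene called in epcam cells (83.9 and 86.7 CPM) and was also higher in slc6a5 cells (119 and 118 CPM), against 0.267 and 1.77 CPM in gch2 cells. Those are the gates where atp5if1b was the main inhibitor. The carrier ucp2 was called higher in gch2 cells (1114 and 1373 CPM) and mpeg1.1 cells (1349 and 2157 CPM) and was low in phox2bb cells (68.9 and 231 CPM). In dct cells it was also high (1421 and 989.6 CPM), though not called.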

How the data were processed

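A pair of single-cell RNA-seq libraries was analysed, 1 per condition, and cells were assigned to them by the barcode suffix (1 for DMSO, 2 for CVT-10216). The deposited values are raw UMI counts per gene and cell, which the authors made with Cell Ranger (2.1.1 and 3.1.0 are listed in the submitters' processing notes) on GRCz11 and combined with its aggregation step. Whether that step equalised depth is not given in the sources used here. The authors' filtered table held 22077 genes and 11283 cells, and the fuller one 25109 genes and 13360 barcodes.

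Counts were summed per gate and library and scaled to counts per 1000000 of all UMIs (CPM). Gates needed 3 UMIs and 300 CPM of the gate gene. Between gates, genes with 50 summed UMIs were called at 2-fold in both libraries. Between libraries, genes with 50 summed UMIs in the gate were called at 1.5-fold. A prior of 0.5 UMI was added. No model was fitted, since 1 library per condition gives no replicate error. Library totals were 58976443 and 86348575 UMIs. For detection shares, each cell was thinned to 4000 UMIs, which left out 1073 DMSO and 1338 CVT-10216 cells that were shallower. Genes named were the mitochondrial genes, the isoform sets, up to 3 members at each end of each gate comparison and up to 2 at each end of each library comparison. Other genes named were chosen after their values were seen. The members and lists were chosen with earlier results of these data known. Alternatives covered gate limits, scaling, depth, cell weights, minimum counts and barcodes. The alternatives for all dct cells, actc1b at 5000 CPM, the splits of the epcam and phox2bb gates, cells of 4000 to 12000 UMIs and cells over 5% mitochondrial UMIs were chosen after seeing the data. Python 3.11.15, numpy 2.4.6, scipy 1.17.1, pandas 2.3.3, matplotlib 3.10.9, R 4.3.3 and edgeR 4.0.16 (TMM factors only) were used. On simulated counts, gate calls were tested for the pnp4a gate only and library ratios for the gch2 gate only. Changes were set only in genes above a minimum count, and the sparse dct and actc1b gates were not covered.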

Additional observations from a re-analysis of the deposited data

Results flagged for a closer look

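The difference between the libraries went opposite ways for cox4i2 in 2 gates, with a log2 ratio (inhibitor to vehicle) of 1.13 in phox2bb cells (40 and 67 UMIs) and of −0.61 in pnp4a cells (743 and 1459 UMIs). The difference between these ratios was not tested, as each condition has 1 library.

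Barcodes that the authors left out of their filtered table, and that no comparison above uses, carried mitochondrial transcripts. These made up 5.05% of the UMIs of 906 such barcodes with DMSO and 6.28% of 1171 with CVT-10216, against 1.36% and 1.42% in the cells kept. Of these barcodes, 105 and 185 held over 20% mitochondrial UMIs, and 559 and 711 held under 1000 UMIs.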

How the results depend on the processing

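No paired analysis was possible because each condition has 1 library, and for the same reason no library could be left out. Counting intervals cover counting error only, and genes with few UMIs in the dct and actc1b gates are limited by depth. The dct, actc1b, epcam and phox2bb splits, the depth band and the limit of 5% were chosen after seeing the data. The calls of cox4i2 in pnp4a cells, ndufa4 in slc6a5 cells and COX7A2 and cox8b in mpeg1.1 cells held in 13 of 13 alternatives, that of cox7a1 in epcam cells in 14 of 14, and those of ndufa4 in phox2bb cells and cox6b1 in mpeg1.1 cells between libraries in 12 of 12. The lower call of cox4i2 with CVT-10216 in pnp4a cells held in 6 of 12. Of 387 values of named genes between gates, 284 kept their call, 91 lost it without being counted as reversed, and 12 were counted as reversed. A higher call counted as reversed when both libraries were below 0. A lower call did so when 1 library was above 0 and the other below. Whether the 91 kept their direction in both libraries was not counted. Of 187 values between libraries, 137 kept their call, 44 kept only the direction and 6 reversed. The cause of the changes below was not tested.

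The log2 ratio of the mitochondrial share in epcam cells (−0.67) was −0.59 with all barcodes, 0.62 with 1 UMI of the gate gene, −0.70 with 10 UMIs, −0.47 with 1000 CPM, −0.55 in cells of 4000 to 12000 UMIs, −0.63 thinned, −0.44 with equal weight per cell, −0.64 without atp1a1a cells and −0.27 without cells over 5%. The ratio of the highest to the lowest gate's mitochondrial share with CVT-10216 (2.16) was 2.21 with all barcodes, 2.45 with 1 UMI, 2.58 with 1000 CPM, 2.13 with cells of several gates kept, 2.61 in the depth band, 2.24 both thinned and with equal weight, and 2.01 without cells over 5%. With DMSO (2.64) it was 2.71, 1.98, 2.18, 2.44, 2.75, 2.82 (thinned), 2.28 (equal weight) and 1.95 in the same order, 2.58 with 10 UMIs and 2.09 without atp1a1a cells. Members called higher between gates (13) were 7 in the depth band. Those called lower (41) were 75 with TMM factors, 26 against all other cells, 22 with 1 UMI, 24 in the depth band and 27 thinned. Members called higher with CVT-10216 (16) were 29 with TMM factors, 29 with 1 UMI and 54 with no minimum. Those called lower (29) were 18 with all dct cells, 13 with 1 UMI, 16 with cells of several gates kept and 67 with no minimum. The shares of all genes called are not set beside these counts, so the counts describe the settings and are not a result about the members.

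With 1 UMI of the gate gene, log2 ratios between libraries reversed for cox16 in epcam cells (1.95), ndufa5 in dct cells (0.67), ndufb6 in actc1b cells (−0.29) and ndufa4 in pnp4a cells (−0.01). Between gates, cox18 in dct cells was below 0 in both libraries (−0.60 in the lower). In actc1b cells cox4i1l was above 0 in 1 library only (0.35). Thinning reversed the ratio between libraries of cox16 in epcam cells (0.26), and the depth band that of ndufa4 in epcam cells (−0.38). Between gates, thinning put ndufaf4 in dct cells (0.27) and cox5b2 in actc1b cells (0.17) above 0 in 1 library. With all dct cells ndufaf4 was 0.01. At 5000 CPM of actc1b, cox4i1l was 0.13 and cox5b2 was 0.85 in actc1b cells. cox5b2 there was also 0.49 against all other cells, 0.56 with all barcodes, 0.18 with 10 UMIs and 0.57 with 1000 CPM. In slc6a5 cells it was 0.81 with 1000 CPM. For these lower calls the value is that of the library with the higher ratio, and the other library stayed below 0. At the main limits, 0% of the 22 and 123 actc1b cells and 0% of the 103 and 156 slc6a5 cells held a cox5b2 UMI. Its ratios there rest on the prior of 0.5 UMI and do not show a higher level.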
